A study of Macaca fascicularis with 12 samples.

Results

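The chemokines of the atherosclerotic plaque were taken as 10 genes, namely CXCL8, CCL2, CCL8, CCL18, CCL5, CXCL10, CXCL12, CCL19, CCL21 and CX3CL1, and were followed across 12 iliac arteries. Members were found by symbol: every probe that the platform annotation assigns to one of these genes alone was used, which gave 11 of the 54359 probes on the array and 10 of its 18278 singly named genes. CXCL12 had 2 probes and each other gene had 1. All 11 probes had a value on every array.

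The arteries came from 12 female cynomolgus monkeys (Macaca fascicularis) over 20 years of age. All 12 had eaten a high fat diet (8 years) and had been ovariectomized (4 years), and none had a further treatment, so the study has no group on a low fat diet and none with ovaries. The submitters sorted the animals by plaque area into small (n = 4, 0 to 0.113 mm2), medium (n = 5, 0.30 to 0.542 mm2) and large plaque (n = 3, 0.61 to 1.003 mm2). In the small group, replicates 2 and 4 had no plaque. Each animal gave 1 left iliac artery and 1 array, and the RNA was of the whole biopsy, not of plaque alone.

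Chemokines are small secreted proteins that guide leukocytes along a concentration gradient through receptors on the leukocyte surface. In the artery wall they are known for bringing monocytes and lymphocytes into the growing plaque. CC and CXC chemokines are named after the spacing of their first cysteines. Inflammatory members such as CCL2 and CXCL8 are made on stimulation, whereas homeostatic ones such as CXCL12, CCL19 and CCL21 guide cells in resting tissue.

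Values are probe intensities on the scale of the deposited table, on which the median probe of every array lay between 1.0037 and 1.0085. Between 53832 and 53867 probes had a value on an array. Differences are in log2 intensity with the standard error (SE) of a fit across all probes, adjusted p-values are from limma over 53877 tested probes, and a gene rose or fell only where the adjusted p was under 0.05. Because the array targets human transcripts, levels were compared between animals for one probe and not between genes. The artery's defining smooth muscle genes ACTA2 and MYH11 lay at percentiles 99.8 and 99.9 of all tested probes on their brightest probes. In whole tissue, more cells of a type and more RNA per cell cannot be told apart.

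Arteries with medium plaque were set against those with small plaque to ask which chemokines accompany an established plaque. CXCL8, CCL2, CCL8 and CCL18 rose, 4 of the 10 members, and none fell. Over all probes 3.14% were called in this comparison. The median difference of the 10 members was 1.13 log2 units, against -0.086 over all probes. CCL5 and CXCL12 differed by about 1 log2 unit without passing the threshold, and CXCL10, CCL19, CCL21 and CX3CL1 differed by between -0.14 and 0.31.

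In arteries with large plaque against the same small arteries, CXCL8 and CCL2 rose, 2 of the 10, with 1.15% of all probes called. The median of the 10 members was 0.81, against -0.099 over all probes. All 3 large arteries lay above all 4 small arteries for 5 members, CXCL8, CCL2, CCL8, CCL18 and CCL5. Of these, CCL8, CCL18 and CCL5 did not pass the threshold. The share of all probes separated in this way was not counted, so this count has no background beside it. The medium and large comparisons share the small arteries, so they are not independent of each other.

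**Figure D1:**
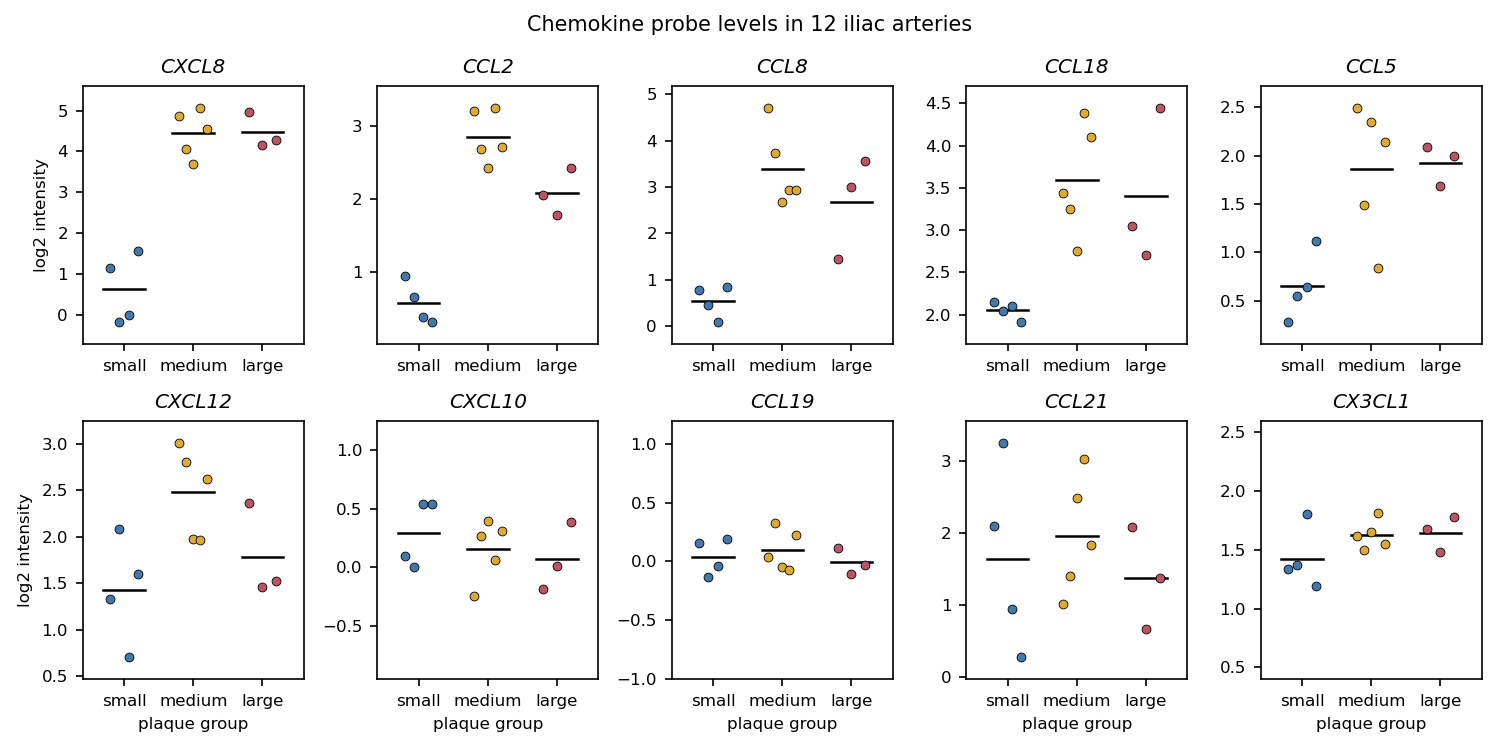
Log2 intensity of the brightest probe of each of the 10 chemokines (vertical axis, scaled separately in each panel) in 4 arteries with small, 5 with medium and 3 with large plaque; each point is 1 artery and each line a group mean. The panels show that CXCL8, CCL2, CCL8 and CCL18 of all medium and large arteries lie above all small arteries, whereas CXCL10, CCL19, CCL21 and CX3CL1 overlap between groups. The share of all probes separated in this way was not counted.

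CXCL8, interleukin 8, a CXC chemokine that draws neutrophils and also halts monocytes on endothelium, showed the largest difference of the 10. Its intensity in replicates 1 to 4 of the small group was 2.20, 0.889, 1.00 and 2.97. In replicates 1 to 5 of the medium group it was 29.2, 16.7, 13.0, 33.2 and 23.4, and in replicates 1 to 3 of the large group 31.2, 17.8 and 19.5. Every medium and large artery lay above the highest small artery, and the plaque-free arteries of the small group (0.889 and 2.97) held both its lowest and its highest value. CXCL8 rose by 3.81 ± 0.39 log2 units in medium plaque, 14.0-fold (adjusted p 0.00048, n = 5 and 4), and by 3.83 ± 0.45 in large plaque, 14.2-fold (adjusted p 0.00202, n = 3 and 4). Both calls held under all 25 alternative settings.

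CCL2, monocyte chemoattractant protein 1, the main ligand that draws monocytes through CCR2 in mouse and human, rose in both groups. Its intensity was 1.93, 1.58, 1.30 and 1.24 in the small arteries. It was 9.20, 6.40, 5.33, 9.43 and 6.51 in the medium arteries, and 4.14, 3.43 and 5.38 in the large arteries. The groups of medium and small arteries did not overlap, nor did those of large and small, and 2 of the 3 large arteries lay below the medium range. CCL2 rose by 2.27 ± 0.22 in medium plaque, 4.83-fold (adjusted p 0.00041), and by 1.51 ± 0.25 in large plaque, 2.85-fold (adjusted p 0.0163). The large call was lost without large replicate 1 (adjusted p 0.0822) and without large replicate 3 (adjusted p 0.0976), while the medium call held under all 25 alternatives.

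CCL8, monocyte chemoattractant protein 2, which attracts monocytes and T cells, spread more widely among arteries with plaque. Its intensity was 1.72, 1.38, 1.07 and 1.78 in the small arteries, 25.8, 13.3, 6.36, 7.61 and 7.67 in the medium arteries, and 2.75, 7.95 and 11.8 in the large arteries. Medium replicate 1 held the highest value, and large replicate 1, the artery with the largest plaque of the series, held the lowest of the 8 arteries with medium or large plaque. CCL8 rose by 2.85 ± 0.46 in medium plaque, 7.20-fold (adjusted p 0.00756). In large plaque it differed by 2.13 ± 0.53 (adjusted p 0.0749), with all 3 arteries above the small ones. The standard deviation of log2 CCL8 was 0.34 in small, 0.83 in medium and 1.09 in large arteries.

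CCL18 is a chemokine of primates that alternatively activated macrophages secrete and that attracts T cells. Its intensity was narrowly held in the small arteries, at 4.42, 4.11, 4.30 and 3.77. It was 10.9, 9.50, 6.72, 21.0 and 17.2 in the medium arteries and 8.27, 6.52 and 21.7 in the large arteries. All 8 arteries with medium or large plaque lay above the small range, and both groups spanned a wide range of values. CCL18 rose by 1.54 ± 0.38 in medium plaque, 2.90-fold, close to the threshold (adjusted p 0.0487), and that call was lost under 14 of 25 alternatives, among them leaving out any 1 of the 4 small arteries, medium replicate 1, 2, 4 or 5 or large replicate 1 (adjusted p 0.0608 to 0.107). In large plaque it differed by 1.35 ± 0.43 (adjusted p 0.151).

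CCL5, or RANTES, a product of T cells and platelets that attracts T cells and monocytes, had intensities of 1.22, 1.46, 1.56 and 2.17 in small arteries. It stood at 5.60, 2.81, 5.08, 1.79 and 4.40 in medium arteries and at 4.27, 3.21 and 4.00 in large arteries. Medium replicate 4, at 1.79, was the only 1 of 8 arteries with medium or large plaque to lie inside the small range. CCL5 differed by 1.21 ± 0.32 in medium plaque (adjusted p 0.0619) and by 1.28 ± 0.36 in large plaque (adjusted p 0.11). Without medium replicate 4, an artery singled out after its value was seen, the medium difference was 1.47 and passed (adjusted p 0.0168). Over 25 alternatives the medium difference of CCL5 passed in 4, and its limma adjusted p reached 0.166.

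CXCL10, an interferon-induced attractant of T cells that bear CXCR3, showed no such difference. Its intensity was 1.07, 1.00, 1.45 and 1.46 in small arteries, 0.843, 1.21, 1.31, 1.04 and 1.24 in medium arteries, and 0.880, 1.01 and 1.30 in large arteries. The groups overlapped, and the probe lay at percentile 52.7 of all tested probes, near the middle of each array, where it may miss a change. CXCL10 differed by -0.14 ± 0.20 in medium plaque (95% interval -0.56 to 0.29) and by -0.22 ± 0.22 in large plaque (95% interval -0.71 to 0.26). The other CXCR3 ligands, CXCL9 at 0.00244 ± 0.190 and CXCL11 at -0.56 ± 0.38 in medium plaque, did not pass either. Their probes were dimmer, at percentiles 44.1 and 19.7 of all tested probes, and CXCL11 was at the floor in 2 medium arteries.

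CXCL12, stromal cell-derived factor 1, a homeostatic chemokine of stromal and endothelial cells that acts on CXCR4, was higher on average in medium arteries but overlapped. On its brighter probe the intensity was 2.52, 4.25, 1.64 and 3.03 in small arteries, 8.04, 6.997, 3.94, 3.91 and 6.18 in medium arteries, and 5.14, 2.75 and 2.88 in large arteries. Medium replicates 1, 2 and 5 and large replicate 1, 4 of the 8 arteries, exceeded the highest small artery. The difference was 1.04 ± 0.32 in medium plaque (adjusted p 0.106) and 0.35 ± 0.37 in large plaque (adjusted p 0.688). The other CXCL12 probe was dim, at percentile 4.55 of all probes with all 3 large arteries at the floor, and it differed by -0.15 ± 0.29 and -0.78 ± 0.33 (adjusted p 0.828 and 0.271), so that its sign was opposite.

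CCL19 and CCL21, the ligands of CCR7 that draw dendritic cells and naive T cells to lymphoid tissue, did not pass. CCL19 kept to a narrow range, from 0.911 to 1.14 in small, 0.951 to 1.26 in medium and 0.929 to 1.08 in large arteries, and differed by 0.05 ± 0.15 in medium and -0.05 ± 0.17 in large plaque. Its probe lay at percentile 50.8 of all probes, near the middle of each array, and a probe at this level may miss a change. CCL21 varied widely within groups instead, at 4.25, 9.46, 1.92 and 1.21 in small arteries, 2.02, 2.65, 5.59, 8.12 and 3.56 in medium arteries, and 4.21, 1.58 and 2.60 in large arteries. Its highest value belonged to small replicate 2, a plaque-free artery. The 95% interval of the CCL21 difference ran from -0.95 to 1.57 in medium and from -1.70 to 1.17 in large plaque, so a rise of 1 log2 unit lies within both intervals and a fall of that size within the large one.

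CX3CL1, fractalkine, a chemokine tethered to the endothelial surface that captures monocytes bearing CX3CR1, did not pass. Its intensity ran from 2.28 to 3.49 in small, 2.82 to 3.51 in medium and 2.79 to 3.42 in large arteries. The ranges overlapped almost wholly. CX3CL1 differed by 0.20 ± 0.16 in medium plaque (95% interval -0.15 to 0.55) and by 0.22 ± 0.18 in large plaque (95% interval -0.17 to 0.61).

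**Figure D2:**
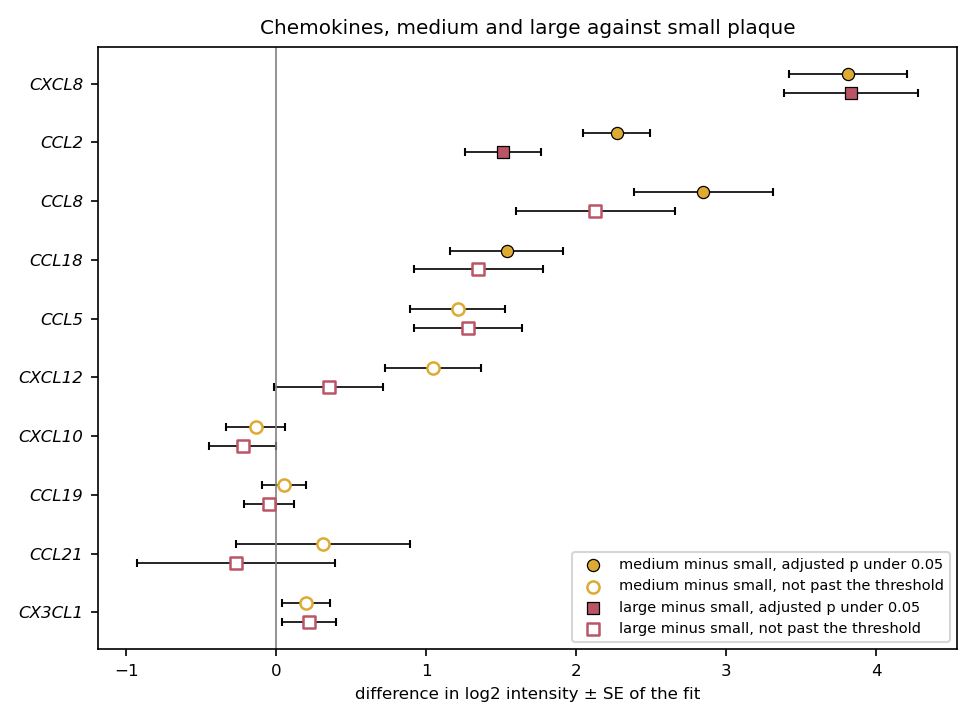
Difference in log2 intensity (horizontal axis, error bars are the SE of the fit) of each chemokine in medium (circles) and large (squares) against small plaque; filled symbols passed an adjusted p of 0.05. CXCL8 stands apart at 3.81 and 3.83, and CCL8 and CCL18 are filled in medium plaque alone.

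Large and medium arteries were then compared directly, to ask whether the chemokines differ further as plaque grows. None of the 10 members was called, and 0% of all probes were, by limma; 1 member, CCL2, had an unadjusted p under 0.05, as had 2713 of all probes. CCL2 differed by -0.76 ± 0.24 (adjusted p 0.885; 95% interval -1.29 to -0.23), CCL8 by -0.72 ± 0.51, and CXCL12 by -0.69 ± 0.35. CXCL8 differed by 0.02 ± 0.43, with an interval of -0.91 to 0.95, and CCL18 by -0.19 ± 0.41. The calls of CCL8 and CCL18 in medium but not in large plaque therefore do not show that these groups differ.

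Plaque area in mm2 was next used in place of the groups. CXCL8 had a slope of 4.90 ± 0.94 log2 units per mm2 over 12 arteries (adjusted p 0.0406) and was the 1 member called, with 0.583% of all probes called. That call was lost under 12 of 26 alternatives, among them without any 1 of the 4 small arteries, medium replicate 3 or 5 or large replicate 2 or 3 (adjusted p for CXCL8 0.0565 to 0.142). Slopes of CCL8 at 2.41 ± 1.05, CCL2 at 2.09 ± 0.70, CCL18 at 1.95 ± 0.56 and CCL5 at 1.53 ± 0.50 did not pass (adjusted p 0.117 to 0.279).

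A slope over all arteries does not separate a step between small and other arteries from a gradual rise, so it was fitted again within the 8 arteries with medium or large plaque. Again 0 members and 0% of probes were called by limma, and no member had an unadjusted p under 0.05. CXCL8 stood at 0.81 ± 0.68 log2 units per mm2, CCL18 at 0.51 ± 1.02, CCL2 at -1.003 ± 0.68 and CCL8 at -2.11 ± 1.13. The 95% intervals were wide, from -0.73 to 2.35 for CXCL8 and from -4.69 to 0.46 for CCL8. For CCL2 and CCL8 the sign within these 8 arteries was thus opposite to that over all 12.

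**Figure D3:**
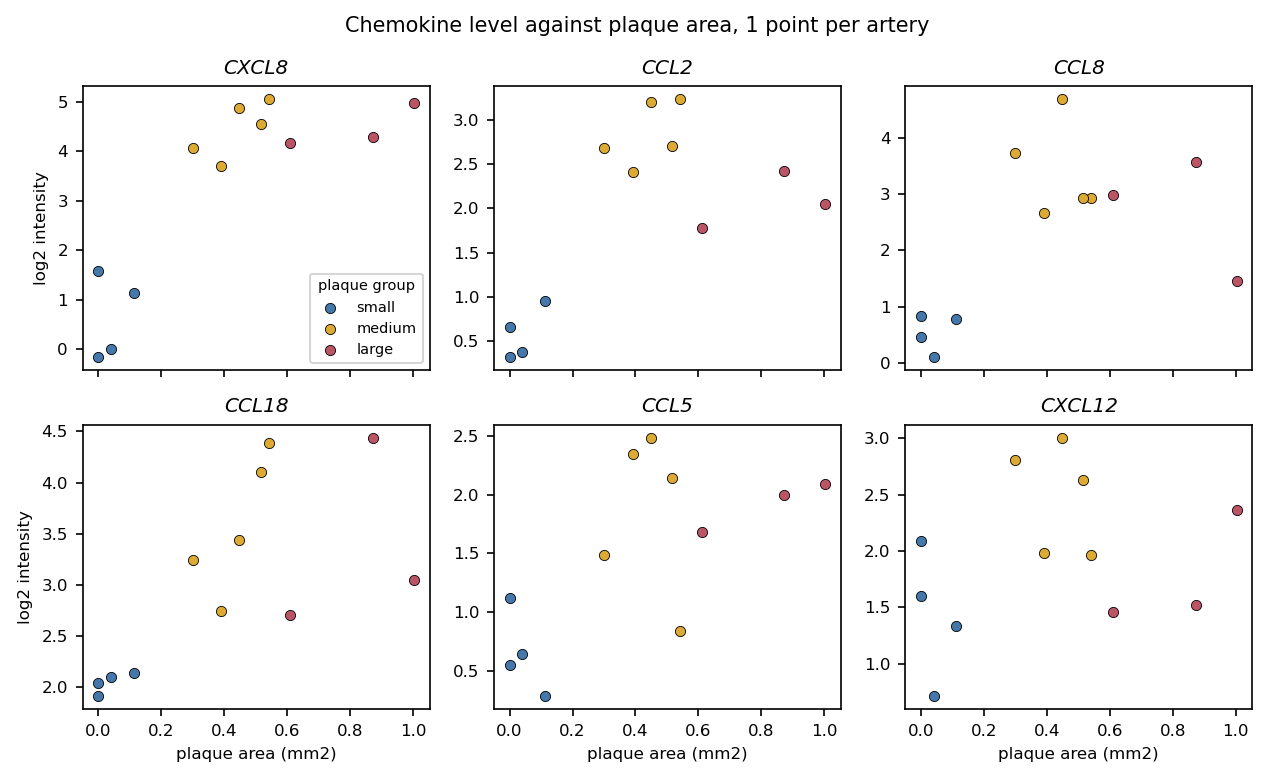
Log2 intensity (vertical axis, scaled per panel) of 6 chemokines against plaque area in mm2 (horizontal axis), 1 point per artery, coloured by plaque group. CXCL8, CCL2, CCL8 and CCL18 are higher in all arteries of 0.30 mm2 or more than in all arteries up to 0.113 mm2, and CCL8 is low in the artery of 1.003 mm2. How many of all probes separate in this way was not counted.

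The 4 rising chemokines had their highest values in 3 different arteries. Among arteries with medium or large plaque the highest CXCL8 and CCL2 values belonged to medium replicate 4 (33.2 and 9.43), the highest CCL8 to medium replicate 1 (25.8) and the highest CCL18 to large replicate 3 (21.7). Large replicate 1 combined one of the highest CXCL8 values, 31.2, with the lowest CCL8 value, 2.75. Deviations from the group means over the 12 arrays gave, among 45 pairs of members, the highest Pearson r for CCL2 with CCL18, at 0.68. CCL2 had an r of 0.41 with CCL8 and 0.40 with CXCL8. These values describe 12 arteries that share their group means and carry no test.

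By the same measure the 3 genes most like each rising member were named from 11227 genes whose mean lay above the median of all probes. A search this wide over 12 arrays can give a high r without any link between the genes. The values carry no test. For CXCL8 they were TYMS, which encodes thymidylate synthase (r 0.98), AMPD3 (0.92) and PLCG2 (0.91). For CCL2 they were ZNF334 (0.95), HK3, a hexokinase (0.93), and DIAPH3-AS2 (0.91), for CCL8 BOLA3 (0.93), CHST4 (0.91) and TMEM60 (0.89), and for CCL18 SAMD12 (0.94), CCZ1 (0.89) and LILRA4 (0.88). No gene was shared between these sets of 3.

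Of the receptors of these ligands, CXCR4 and CCR1 rose. CXCR4, the receptor of CXCL12 on leukocytes, had intensities of 1.37, 1.14, 2.01 and 3.46 in small arteries, 49.9, 15.2, 21.1, 16.4 and 17.0 in medium arteries, and 35.9, 10.9 and 25.8 in large arteries. All 8 arteries with medium or large plaque exceeded the small ones, CXCR4 rising by 3.56 ± 0.45 in medium (adjusted p 0.00175) and 3.58 ± 0.51 in large plaque (adjusted p 0.00691). The large call was lost without large replicate 3 (adjusted p 0.0508). CXCR4 also had the only receptor slope on plaque area to pass, 4.59 ± 0.94 per mm2 (adjusted p 0.0489), a call lost under 16 of 26 alternatives, among them without any 1 of the 4 small arteries, medium replicate 3, 4 or 5 or any of the 3 large arteries (adjusted p for CXCR4 0.0582 to 0.156).

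CCR1, a receptor of CCL5 and CCL15 on monocytes, had intensities of 0.295, 0.586, 0.353 and 0.608 in small arteries, 4.98, 5.92, 3.65, 4.10 and 1.46 in medium arteries, and 6.67, 1.38 and 2.11 in large arteries. It rose by 3.05 ± 0.49 in medium (adjusted p 0.0065) and 2.61 ± 0.55 in large plaque (adjusted p 0.046), with no overlap. The large call was lost under 14 of 25 alternatives, among them without any 1 of the 4 small arteries, medium replicate 2, 3 or 4 or large replicate 1 or 3 (adjusted p 0.0539 to 0.189). Without large replicate 1 the large difference of CCR1 was 1.96. The atypical receptor CCRL2, which binds chemerin without signalling, rose by 1.60 ± 0.29 in medium plaque (adjusted p 0.0124) and differed by 1.15 ± 0.33 in large plaque (adjusted p 0.114). Its medium call was lost without both small replicate 4 and medium replicate 5 (adjusted p 0.0623), whose identity numbers in the labels lie apart from those of the other animals.

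The other receptors did not pass. CXCR2, a receptor of CXCL8 on neutrophils, was lower in all 8 arteries with medium or large plaque (1.13 to 2.19) than in all 4 small ones (2.38 to 5.57), by -1.08 ± 0.27 in medium (adjusted p 0.0533) and -1.10 ± 0.31 in large plaque (adjusted p 0.108). CXCR1, its relative, differed by -1.09 ± 0.47 and -0.76 ± 0.53 on a dim probe, at percentile 25.1 with 1 medium artery at the floor. CCR2, the receptor of CCL2, was dim throughout, from 0.189 to 0.467, and differed by -0.15 ± 0.26 and -0.41 ± 0.29. CCR7 differed by -0.11 ± 0.19 and -0.19 ± 0.21, CXCR3 by -0.16 ± 0.14 and -0.18 ± 0.16, and CX3CR1 by 0.49 ± 0.16 and 0.31 ± 0.18 on its brighter probe, in medium and large plaque in that order. The other CX3CR1 probe had the opposite sign, at -0.48 ± 0.40 and -1.25 ± 0.46, and did not pass. CCR8, a receptor of CCL18, differed by -0.50 ± 0.16 and -0.25 ± 0.19, ACKR1 by -0.09 ± 0.14 and -0.19 ± 0.16, and ACKR3 by 0.07 ± 0.19 and -0.03 ± 0.22. In all, 2 of 16 measured signalling receptors rose in medium and 2 in large plaque, and 1 of 6 atypical receptors in medium plaque, with median differences of 0.08, 0.05 and -0.05.

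**Figure D4:**
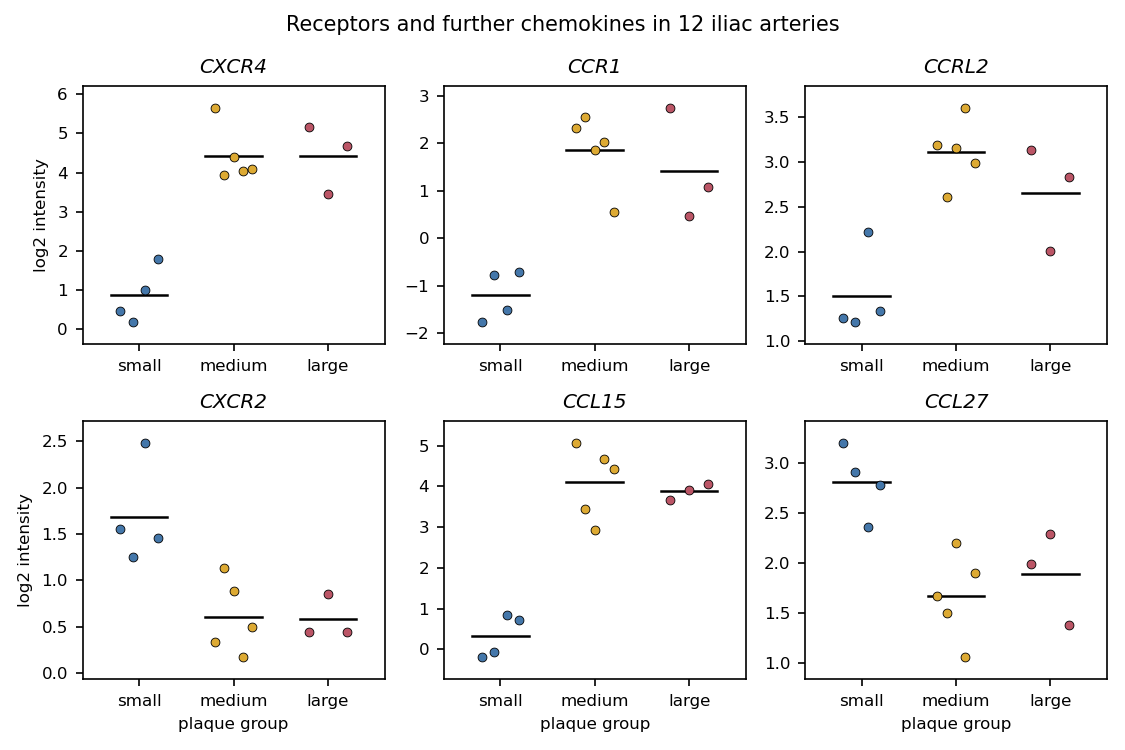
Log2 intensity (vertical axis, scaled per panel) of 4 receptors and 2 further chemokines in 4 arteries with small, 5 with medium and 3 with large plaque; points are arteries and lines group means. CXCR4, CCR1 and CCL15 of all medium and large arteries lie above all small arteries, and CXCR2 and CCL27 lie below them. Separation of this kind was not counted over all probes.

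Among the chemokines outside the 10, CCL15, a ligand of CCR1 that attracts monocytes, showed a difference close to that of CXCL8. Its intensity was 0.884, 0.959, 1.80 and 1.65 in small arteries, 33.4, 10.9, 7.65, 25.6 and 21.6 in medium arteries, and 12.7, 15.2 and 16.8 in large arteries. CCL15 rose by 3.78 ± 0.41 in medium (adjusted p 0.000558) and 3.56 ± 0.46 in large plaque (adjusted p 0.00426), and both calls held under all 25 alternatives. CCL27, a ligand of CCR10 known from skin, fell by 1.15 ± 0.26 log2 units in medium plaque (adjusted p 0.0374) and differed by -0.92 ± 0.30 in large plaque. Its intensities were 3.18, 2.83, 4.58, 2.09 and 3.73 in medium arteries, against 9.17, 7.52, 5.13 and 6.88 in small arteries. That call was lost under 11 of 25 alternatives, among them without small replicate 1, 2 or 4, medium replicate 1, 2, 4 or 5 or large replicate 1 (adjusted p 0.0543 to 0.0951).

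CXCL17 rose in medium plaque (adjusted p 0.0332), but all 4 small arteries lay at the floor and its highest value was 0.261, so the fitted difference is no bound. The CXCL17 call was lost under 13 of 24 alternatives, among them without any 1 of the 4 small arteries or medium replicate 1, 3, 4 or 5 (adjusted p 0.0525 to 0.0802). CXCL3, a ligand of CXCR2 like CXCL8, was above the small range in all 8 arteries and differed by 0.86 ± 0.26 and 0.86 ± 0.30 in medium and large plaque (adjusted p 0.105 and 0.185). CCL17 differed by 1.58 ± 0.47 in medium plaque (adjusted p 0.096); CXCL3 and CCL17 were singled out after their values were seen. Of 15 measured further CC chemokines 1 rose and 1 fell in medium plaque, with a median of -0.04, and 1 rose in large plaque. Of 11 measured CXC chemokines 1 rose in medium and 0 were called in large plaque by limma, where 4 had an unadjusted p under 0.05, with medians of 0.00244 and 0.03. In large plaque 8658 of all 53877 tested probes had an unadjusted limma p under 0.05.

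Chemokine genes lie in runs on the chromosome, and 9 of the 10 member symbols were found in the RefSeq gene table for macaque, from which gene order alone was taken. CCL2, CCL7, CCL11 and CCL8 are consecutive protein-coding genes there. In medium plaque the outer pair rose by 2.27 and 2.85, whereas CCL7 differed by -0.28 ± 0.17 and CCL11 by 0.78 ± 0.48, neither past the threshold. CCL15 and CCL18 lie in another run between CCL16 (-0.04 ± 0.18) and CCL3 (0.07 ± 0.14), which did not pass. In the run of CCL22, CX3CL1 and CCL17 the differences were -0.29 ± 0.15, 0.20 ± 0.16 and 1.58 ± 0.47, and in that of CCL21, CCL19 and CCL27 they were 0.31 ± 0.58, 0.05 ± 0.15 and -1.15 ± 0.26. Members of a run resemble each other in sequence, and cross-binding of a human probe to a neighbouring transcript was not tested.

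**Figure D5:**
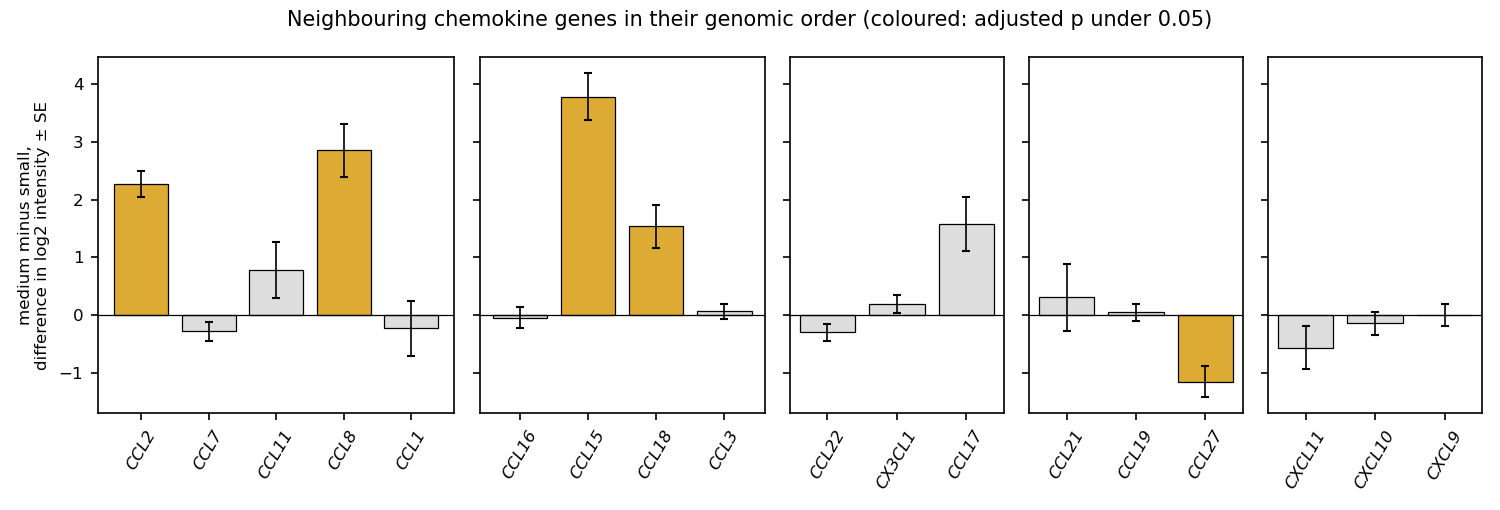
Difference in log2 intensity between medium and small plaque (vertical axis, bars with SE of the fit) of chemokine genes in 5 runs, each in its order on the macaque chromosome (horizontal axis); genes without a usable probe are left out and coloured bars passed an adjusted p of 0.05. CCL2 (2.27) and CCL8 (2.85) rise beside CCL7 (-0.28), and CCL15 (3.78) and CCL18 (1.54) beside CCL16 (-0.04) and CCL3 (0.07).

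Enzymes that cleave or release chemokines and proteins that bind or anchor them were examined together as a further list. ADAM10 and ADAM17, the membrane proteases that shed CX3CL1 and CXCL16, rose in medium plaque by 0.92 ± 0.18 (adjusted p 0.0174) and 1.59 ± 0.36 (adjusted p 0.0367), 2 of 10 in that list with a median of 0.18. The dimmer ADAM10 probe differed by 0.81 ± 0.32 (adjusted p 0.207). In large plaque they differed by 0.85 ± 0.20 and 1.39 ± 0.41 (adjusted p 0.067 and 0.126), with no overlap with small arteries for either gene.

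The signalling that is known to induce chemokines was read from 2 lists. Of 12 measured NF-kB response genes, the inhibitor NFKBIE rose by 1.39 ± 0.21 in medium (adjusted p 0.0052) and 1.22 ± 0.24 in large plaque (adjusted p 0.0366), and IER3 rose by 1.04 ± 0.24 in medium plaque (adjusted p 0.0371). That made 2 of 12 in medium and 1 of 12 in large plaque, with medians of 0.09 and 0.05. Of 13 measured interferon response genes 0 were called by limma in medium or large plaque, while 3 in medium and 2 in large plaque had an unadjusted p under 0.05, with medians of 0.27 and 0.17. Those 3 in medium plaque were MX1 at -1.14 ± 0.43, OAS1 at 0.40 ± 0.15 and IRF9 at 0.56 ± 0.26, so they did not share a sign. Of all 53877 tested probes, 9885 in medium and 8658 in large plaque had an unadjusted limma p under 0.05. The counts in the list were not tested against that background.

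Most macrophage markers were higher in arteries with medium or large plaque than in those with small plaque. Of 16 measured macrophage markers 10 rose in medium and 9 in large plaque, with medians of 2.54 and 2.59, among them TYROBP by 3.11 and CD86 by 3.22 in medium plaque. The other direction was seen in 3 of the 16, none past the threshold, and they were named after their values were seen. MARCO, a scavenger receptor, differed by -0.66 ± 0.23 in medium and -0.90 ± 0.27 in large plaque, with 7 of 8 arteries below the small range. CD68, a lysosomal protein of macrophages, differed by -0.44 ± 0.45 and -0.66 ± 0.51, with 6 of 8 arteries below and 2 above the small range, and C1QB, a complement chain, by -0.29 ± 0.41 and -0.11 ± 0.47. All 3 large arteries lay below all 4 small ones for MARCO and CD68. The mean log2 level of that list ran from 0.61 to 1.66 in small, 2.93 to 3.97 in medium and 2.95 to 3.60 in large arteries, without overlap between small and the other groups. Its summed intensity ran from 79.4 to 149.0 in small, 348.6 to 696.0 in medium and 359.6 to 542.4 in large arteries. At most 2 of its 16 markers were at the floor on an array, both in small replicate 2. The part of this list in the chemokine differences was not tested.

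T cell markers rose for 2 of 11 measured genes in medium plaque, GZMA by 2.53 and CD27 by 1.66, and 0 were called in large plaque, where 4 had an unadjusted p under 0.05 and GZMA differed by 2.28 ± 0.52 (limma adjusted p 0.0587). Their mean log2 level was 0.38 to 1.07 in small, 1.18 to 1.63 in medium and 0.89 to 1.46 in large arteries. None of 5 measured neutrophil markers was called by limma. An unadjusted limma p under 0.05 was reached by 1, CSF3R, in medium plaque and by 1 in large plaque. Their mean log2 level overlapped, at -1.13 to -0.63 in small, -0.98 to -0.79 in medium and -0.90 to -0.65 in large arteries. MPO, S100A12, FPR1 and MMP8 stayed at or below 0.84 in every artery, under the array median, and probes this dim may miss a change. Contractile smooth muscle markers stood lower, with 2 of 9 fallen in medium plaque, MYLK by 1.61 and SMTN by 2.39 log2 units, MYLK alone in large plaque, by 1.48, and 9 of 9 differences below 0 in both. The dimmer probes of MYLK and SMTN differed by 0.28 ± 0.54 and 0.00458 ± 0.153 in medium plaque and did not pass. Markers of B cells, endothelium, lymphatic vessels, mast cells and adventitial fibroblasts had no call by limma on their main probes in either comparison. Of the 7, 9, 6, 4 and 7 genes measured in that order, 0, 1, 0, 1 and 4 had an unadjusted p under 0.05 in medium plaque and 1, 1, 0, 0 and 1 in large plaque. Among all 53877 tested probes, 9885 in medium and 8658 in large plaque had an unadjusted limma p under 0.05. The counts for T cell, neutrophil and these other markers were not tested against that background.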

How the data were processed

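RNA from 12 iliac arteries was hybridised to human arrays, 1 array per animal. The deposited table holds a linear intensity per probe and array, scaled by the authors so that each array median lies close to 1. How background and scale were computed is not given in the sources used here. Some intensities are below 0. Groups and plaque areas were taken from the labels, with an area given as none read as 0.

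A floor of 0.111, which is percentile 5 among values above 0, replaced lower values (5.45% of those tested) before log2 was taken. A probe needed values from 2 or more animals per group, which kept 53877, and was fitted with 3 group means, or with a slope on plaque area, in limma 3.58.1 under R 4.3.3, with Benjamini-Hochberg adjustment over all of them. The methods were tested on simulated data. The fit was chosen for intensities, with no count model. Separate animals are the replicates, and 12 arrays limit the precision.

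A gene is represented by its brightest probe with values on every array. Gene names are from the platform annotation, and 29710 tested probes without a symbol and 900 with several were left unnamed. Genes named outside the 10 are the called chemokines and receptors, the receptors of the members, up to 4 called genes of smallest p in each other list (2 where none was called), genomic neighbours, and the 3 genes most like each called member; any other is said to be singled out or completes a small count. The members and lists were chosen with earlier results of these data known. Normalization, floor, filter, variance model, replicate number and each animal were varied.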

Additional observations from a re-analysis of the deposited data

Results flagged for a closer look

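In 49 groups of 4 or 5 arteries, 2 had an artery standing far from the others, where chance gives about 1 in 20 groups. CXCR4 was 49.9 in medium replicate 1, against 21.1 in the next and 15.2 in the lowest medium artery. CCRL2 was 4.67 in small replicate 3, against 2.53 in the next and 2.32 in the lowest small artery. No value of the 10 chemokines stood apart in this way.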

How the results depend on the processing

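Over 27 alternative settings, 2945 of 3055 single-gene results kept their side of the threshold, 87 lost a call and 23 gained one. No called direction was reversed. Most of the 3055 were not called in the main fit and so could not lose a call. The share kept therefore overstates how firm the calls are. Among the 10 chemokines, the 4 calls in medium plaque became 2 with the replicate number as a block, where CCL8 (adjusted p 0.0530) and CCL18 (0.143) were lost, and ran from 3 to 4 without 1 animal. The 2 calls in large plaque became 1 with that block, where CCL2 was lost (0.0632), and 1 when small replicate 4 and medium replicate 5 were both left out, and ran from 1 to 3 without 1 animal. The 1 call for plaque area became 0 with the floor at the 1st percentile, with array weights, with the replicate block and without those 2 animals, became 3 with the square root of area, and ran from 0 to 2 without 1 animal. Large against medium plaque, and area within those 8 arteries, gave 0 calls of the 10 throughout, and from 0 to 0 without 1 animal. The causes were not tested.

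Deviations of same-numbered animals from their group means had r from -0.159 to 0.216 over 10 pairs, with a median of 0.082. Pairs of other numbers had r from -0.203 to 0.228 over 37 pairs, with a median of -0.023. Whether the replicate number marks a pairing or a batch was not tested. Calls over all probes numbered 1693 in medium plaque, from 773 without those 2 animals to 2724 with only probes above the array median, and 617 in large plaque, from 112 without large replicate 3 to 1578 with that filter. For plaque area they numbered 314, and 1586 with the square root of area. They fell to 0 with the replicate block, without large replicate 3 and without those 2 animals. Without small replicate 2 or without small replicate 4 alone, 1 was left. Probes near the floor, such as that of CXCL17, carry little order.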
